A study of Danio rerio with 15 samples.

Results

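Transcript levels were compared between zebrafish embryos at the 16-cell stage and embryos at 9 hours after fertilisation, and the genes that differed are described by function. The comparison used 5 of the 15 arrays of the series, 2 from the 16-cell stage and 3 from 9 hours, chosen by the stage, genotype and treatment in their labels. The 16-cell embryos were labelled as the wild-type strain TLAB with no treatment. The 9-hour embryos were uninjected wild type, with no strain given. The other arrays of the series hold 50% epiboly, embryos lacking Dicer and embryos injected with miR-430, a study of how that microRNA clears maternal mRNA. They entered here through the normalisation of all arrays together and the shared estimate of the spread between replicates. They also entered the limits that set which probe sets were bright or dim. Values of the single wild-type 50% epiboly array are given beside those of the 5 arrays. Each array carried RNA pooled from 20 embryos kept at 28 °C. An oligo(dT) primer started the labelling of 2 µg of total RNA, so a signal reflects both the poly(A) tail and the abundance of a transcript.

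An early zebrafish embryo runs on mRNA and protein that the mother placed in the egg. Its own genome is silent through the rapid cleavage divisions and is switched on at the midblastula transition, when factors including Nanog, Pou5f3 and SoxB1 proteins open chromatin at early genes. Maternal mRNAs are then removed, in part through miR-430, which is itself among the earliest zygotic transcripts. At 16 cells the embryo is in cleavage, and at 9 hours it is ending epiboly, with germ layers formed and gastrulation movements under way.

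A level here is a quantile-normalised array intensity for 1 probe set, and a gene is represented by its probe set of highest mean over both stages. A log2 difference is the 16-cell level minus the 9-hour level on the log2(intensity + 16) scale, so positive values are higher at 16 cells. It is given with its standard error, and it understates differences of dim probe sets. Calls are limma results at a Benjamini-Hochberg adjusted p under 0.05 over all probe sets tested, and every adjusted p given is limma's. A level of 0 means that normalised values were at or below 0, and no fold is given against it. Levels of different genes are not set against each other, because probe sets differ in brightness.

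The stage labels were checked against stage markers. The summed level of 4 measured egg genes of 5 listed was 22468 to 22685 at 16 cells and 632.1 to 649.0 at 9 hours. The summed level of 5 epiboly genes was 375.3 to 386.8 at 16 cells and 19121 to 20361 at 9 hours. Of 8 markers of ovarian follicle cells, which could adhere to eggs, 5 were measured and 2 of these were dim at both stages. Their sum was 447.2 to 463.4 at 16 cells and 473.6 to 547.5 at 9 hours, with 1 called higher at each stage. Of 15 markers of later tissues 10 were measured, 3 dim at both stages, 1 called higher at 16 cells and 4 at 9 hours, and their sum was 1402 to 1448 at 16 cells and 1970 to 2219 at 9 hours. Pearson correlations of log2 values were 0.997 between the 16-cell arrays, 0.989 to 0.995 among the 9-hour arrays and 0.552 to 0.571 between stages. The labels do not say that replicates came from separate clutches. The p-values here rest on differences among replicate arrays over all groups of the series, which could be technical. The 16-cell arrays shared a scan day that held no 9-hour array, so stage and scan day cannot be told apart. The 50% epiboly array was scanned on the 16-cell day. Control probe sets also moved with stage. The ratio of 3′ to 5′ GAPDH signal was 0.429 and 0.313 at 16 cells and 0.146, 0.177 and 0.161 at 9 hours. Ratios of middle to 5′ signal moved the other way. For GAPDH they were 0.462 and 0.444 at 16 cells and 0.683, 0.866 and 0.843 at 9 hours. For actin they were 4.12 and 4.19 at 16 cells and 8.70, 10.2 and 10.9 at 9 hours. The geometric mean of the hybridisation controls was 763.4 and 726.3 at 16 cells and 1117, 980.0 and 1229 at 9 hours. The part of any of these in the results was not tested beyond the scaling given below.

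Most of the measured transcriptome differed between the stages. Of 15502 probe sets, 11719 were called (75.6%), 6197 higher at 16 cells (40.0%) and 5522 higher at 9 hours (35.6%). A difference of at least 2-fold was called for 3257 probe sets higher at 16 cells (21.0%) and 3004 higher at 9 hours (19.4%). At 16-fold or more these counts were 234 and 427. The arrays of the stages did not overlap for 84.6% of all probe sets. Over 8793 named genes, 6922 were called (78.7%), 3934 higher at 16 cells (44.7%) and 2988 higher at 9 hours (34.0%), and 2201 (25.0%) and 1574 (17.9%) were also at least 2-fold apart. The shares of genes at least 2-fold apart are the background for each list below, and 44.7% and 34.0% are the background wherever a family is described by its calls alone. Families within lists were drawn by symbol after values were seen. The median log2 difference was 0.08 over probe sets and 0.16 over genes.

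The balance between the directions depended on how arrays were scaled. The median over all probe sets was -0.15 with intensities as deposited, -0.02 under median centring and 0.31 when arrays were scaled to equal hybridisation controls. Calls higher at 16 cells were 52.9% of all calls here, 45.2% as deposited, 50.9% under median centring and 65.8% when scaled to the controls. The list medians below are therefore best read against the medians of all genes or probe sets under the same scaling.

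Many probe sets were bright at both stages. A probe set was called bright at a stage when every array lay above the median level of 178.5, and dim when every array lay below 123.2, the 40th percentile. By this rule 5450 probe sets (35.2%) were bright at both stages and 3943 (25.4%) were dim at both. Bright at 16 cells and dim at 9 hours were 1235 (7.97%), and the reverse held for 1245 (8.03%). The rest lay between the limits. Of the genes, 768 were bright at 16 cells and dim at 9 hours, and 594 the reverse.

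**Figure D1:**
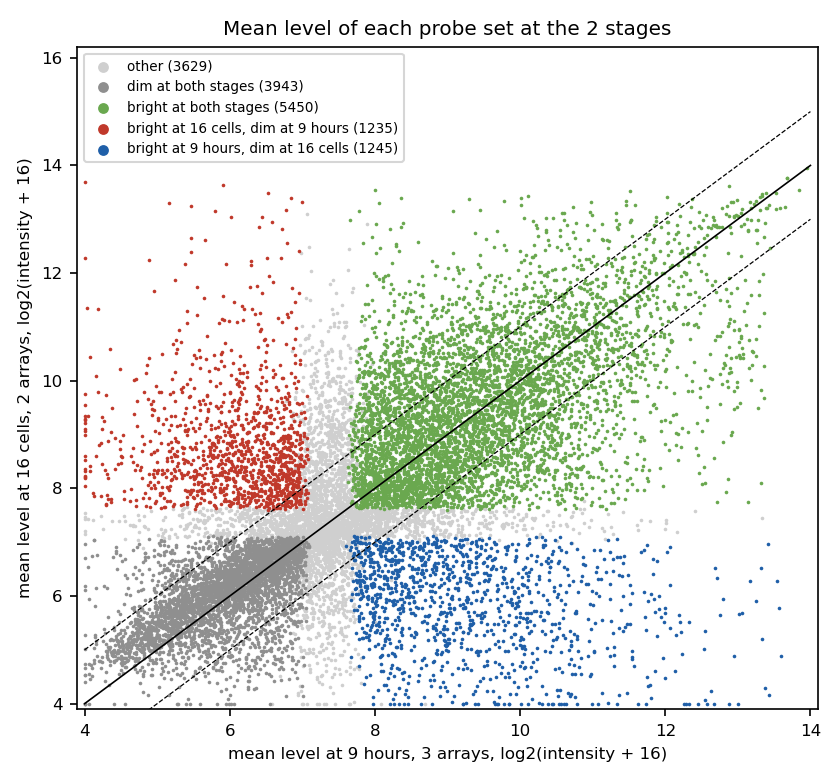
Mean level of each of 15502 probe sets at 9 hours (horizontal axis, 3 arrays) and at the 16-cell stage (vertical axis, 2 arrays), both as log2(intensity + 16). The solid line marks equal levels and the dashed lines a 2-fold difference on this scale. Green points, bright at both stages, spread widely around the line, and the red and blue corners hold 1235 and 1245 probe sets.

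Egg-secreted proteins and RNA-binding proteins of the oocyte made up one side of the maternal supply. Of 16 measured egg coat and oocyte-secreted genes, 14 were higher at 16 cells and 1 was higher at 9 hours, and 9 were at least 2-fold higher at 16 cells (56.2%, against 25.0% of all genes). The list median was 1.48. Zona pellucida genes, which encode the egg coat, accounted for 12 of these calls among 13 measured. The growth factor gene gdf3, also known as vg1, encodes a maternal partner of Nodal ligands. It read 7618 and 7672 at 16 cells and 249.7, 133.6 and 277.8 at 9 hours (log2 difference 5.08 ± 0.20, adjusted p = 1.01e-12). The egg coat gene zp3d.1 read 853.7 and 876.9 at 16 cells and 28.4, 4.09 and 19.5 at 9 hours (4.80 ± 0.28). For both genes the 16-cell arrays lay close together and far above every 9-hour array.

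Genes for cytoplasmic mRNA binding and translational control were split, with more on the maternal side. Of 55 measured, 29 were higher at 16 cells and 16 at 9 hours, and 21 (38.2%) and 7 (12.7%) were at least 2-fold apart. The list median of 0.19 was close to the 0.16 of all genes. The zinc finger gene cth1, of the tristetraprolin family that binds AU-rich elements, read 10062 on both 16-cell arrays and 25.0, 11.4 and 23.5 at 9 hours (8.15 ± 0.37, adjusted p = 6.08e-12). The oocyte RNA-binding gene zar1l read 5425 and 5378 at 16 cells and 120.4, 95.2 and 108.0 at 9 hours (5.46 ± 0.16). Other genes of the list were higher at 9 hours. Another tristetraprolin relative, zfp36l1b, read 30.1 and 28.4 at 16 cells and 431.3, 371.2 and 412.3 at 9 hours (-3.22 ± 0.11). The mRNA-binding gene igf2bp1 read 121.8 and 102.3 at 16 cells against 574.2, 665.2 and 659.0 (-2.34 ± 0.096).

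Cell division genes leaned to the 16-cell stage as a group. Of 51 spindle and kinetochore genes, 36 were higher at 16 cells and 11 at 9 hours, with 19 (37.3%) and 3 (5.88%) at least 2-fold apart. Of 54 replication genes, 33 were higher at 16 cells and 11 at 9 hours, with 19 (35.2%) and 3 (5.56%) at least 2-fold apart. Of 35 repair genes, 21 and 6 were called, with 12 (34.3%) and 3 (8.57%) at least 2-fold apart. The list medians were 0.49, 0.53 and 0.51, and they were positive under all 4 scalings. Most of these genes were bright at both stages, 43 of the spindle list and 44 of the replication list.

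Within the replication list the licensing machinery did not move as a block. The origin recognition gene orc1 read 3156 and 3067 at 16 cells and 303.9, 311.0 and 307.0 at 9 hours (3.27 ± 0.11, adjusted p = 1.08e-13), and 5 of 6 origin recognition genes were at least 2-fold higher at 16 cells. Among 8 helicase genes of the MCM group, 3 were higher at 16 cells and 4 at 9 hours. The helicase gene mcm6l read 2197 and 2171 at 16 cells against 212.6, 200.5 and 210.7 (3.30 ± 0.10). In the other direction mcm3 read 129.6 and 138.5 at 16 cells against 2918, 3403 and 3119 (-4.40 ± 0.063). The additional probe set of each gave the same direction. The single-strand binding gene rpa2 read 339.7 and 344.5 at 16 cells against 769.2, 870.7 and 775.4 (-1.20 ± 0.088), a call that was lost when arrays were scaled to the hybridisation controls.

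Spindle and checkpoint genes showed the same mix of large maternal excess and a few late gains. The survivin gene birc5b, of the chromosomal passenger complex, read 5807 and 6258 at 16 cells and 92.8, 101.4 and 89.2 at 9 hours (5.78 ± 0.14, adjusted p = 3.59e-15). The kinetochore gene zw10 read 1088 and 1005 against 108.9, 79.7 and 80.6 (3.34 ± 0.13). Higher at 9 hours were cenps, at 76.6 and 86.4 against 645.3, 693.5 and 632.2 (-2.79 ± 0.086), and nuf2, of the Ndc80 complex, at 182.8 and 192.1 against 704.3, 679.6 and 668.6 (-1.78 ± 0.079). Repair genes divided along similar lines. The recombination gene rad51b (3.06 ± 0.12) and the endonuclease gene apex2 (2.95 ± 0.13) were higher at 16 cells. The ligase gene lig3 (-2.57 ± 0.051) and apex1, the main endonuclease at abasic sites (-1.64 ± 0.051), were higher at 9 hours.

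A few further genes of the oocyte cell cycle are given because they met the rule for naming, which takes large differences, or stood in a listed pair. No list of meiotic genes was counted. The kinase gene mos, which keeps vertebrate eggs arrested, read 4981 and 5758 at 16 cells and 30.1, 24.9 and 29.9 at 9 hours (6.93 ± 0.16, adjusted p = 1.12e-15). The gene fbxo43 encodes an inhibitor of the anaphase-promoting complex that works with it, and read 2334 and 2422 against 42.6, 23.8 and 26.6 (5.69 ± 0.19). The oocyte kinase gene wee2 read 7297 and 7162 against 87.9, 83.6 and 96.0 (6.11 ± 0.16), and its 4 other probe sets were called in the same direction. On the 50% epiboly array these 3 genes read 29.4, 58.3 and 287.6, near their 9-hour levels for mos and fbxo43 and between the stages for wee2. Other large excesses at 16 cells outside the lists were those of ccnp (7.47), ccnb1l (7.17), lemd1 (7.00), lipg (6.80), fhdc3 (6.71) and spink2.1 (6.37). The gene ppp1r3c2b, for a subunit that targets protein phosphatase to glycogen, read 4929 and 5004 at 16 cells and was listed at 0 on every 9-hour array.

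Membrane trafficking, the largest list, leaned to the maternal side. Of 187 measured genes, 124 were higher at 16 cells and 41 at 9 hours. At least 2-fold apart were 70 (37.4%) and 12 (6.42%), against 25.0% and 17.9% of all genes. The median of 0.69 was positive under all 4 scalings. Sorting nexins of the endosome were higher at 16 cells in 16 of 20 cases, and the Vps proteins of the endosome and lysosome in 15 of 19. Adaptor subunits of vesicle coats were higher in 13 of 17 and SNARE fusion proteins in 10 of 14. Rab GTPases were higher at 16 cells in 20 of 36 genes and at 9 hours in 12, but 11 each way of 25 once the dimmest 40% of probe sets had been dropped. The Rab gene rab20 read 863.9 and 874.2 at 16 cells and 29.3, 19.5 and 14.5 at 9 hours (4.60 ± 0.22, adjusted p = 1.12e-11). Genes of entry into the secretory pathway did not all follow. The small translocon subunit gene sec61g read 518.1 and 569.5 at 16 cells against 4582, 4873 and 4958 (-3.11 ± 0.058), and 5 p24 cargo receptor genes gave 2 calls at 16 cells and 3 at 9 hours.

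Ubiquitin enzymes and the proteasome differed in direction. Of 156 ubiquitin conjugation and deubiquitination genes, 81 were higher at 16 cells and 55 at 9 hours, with 60 (38.5%) and 23 (14.7%) at least 2-fold apart. The deubiquitinase gene uchl1 read 9111 and 9047 at 16 cells and 206.0, 195.9 and 209.5 at 9 hours (5.37 ± 0.10, adjusted p = 1.14e-16). Ubiquitin-specific proteases were higher at 16 cells in 15 of 23 genes and at 9 hours in 7. RNF ring finger genes were higher at 16 cells in 20 of 35 and at 9 hours in 11, with a median of 1.16. Without the dimmest 40% of probe sets these RNF counts were 13 and 11 of 27, and the median was 0.18. Conjugating E2 enzymes were even, 10 higher at 16 cells and 11 at 9 hours, and ube2e2 read 67.9 and 68.9 against 3168, 2713 and 2710 (-5.09 ± 0.080). The median of the ubiquitin list was 0.34 and stayed positive under the other 3 scalings, but was -0.01 once the dimmest 40% of probe sets had been dropped. The median over all probe sets under that filter was -0.20.

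For the proteasome itself, 39 of 48 genes were higher at 9 hours and 4 at 16 cells, with 25 (52.1%) and 2 (4.17%) at least 2-fold apart. The median was -1.20 and was negative under all 4 scalings. The alpha ring of the core particle was higher at 9 hours in 7 of 8 genes, the base ATPases in 7 of 7 and the other regulatory particle subunits in 11 of 11. Scaled to the hybridisation controls, the alpha ring kept 7 of 8. The ATPases then had 5 of 7 higher at 9 hours and 1 at 16 cells, and the other regulatory subunits 4 of 11 and 0. Of the beta ring, 8 of 12 genes were higher at 9 hours and 2 at 16 cells. With intensities as deposited these counts were 10 and 0, and without the dimmest 40% of probe sets 8 and 0 of 8. The catalytic subunit gene psmb6 read 176.0 and 169.2 at 16 cells and 2780, 2835 and 2555 at 9 hours (-3.86 ± 0.059, adjusted p = 9.31e-18). The 2 genes at least 2-fold higher at 16 cells were not core subunits. They were the activator gene psme3, at 6060 and 6367 against 2441, 2416 and 2260 (1.38 ± 0.053), and the assembly chaperone gene psmd10, at 649.3 and 693.7 against 342.9, 270.4 and 271.1 (1.15 ± 0.12).

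Chaperones lay close to the background shares, with 27 of 92 (29.3%) at least 2-fold higher at 16 cells and 14 (15.2%) at 9 hours. Their families differed in direction. J proteins, which load Hsp70, were higher at 16 cells in 19 of 28 genes, and protein disulfide isomerases of the secretory pathway in 6 of 6. The cytosolic chaperonin that folds actin and tubulin was higher at 9 hours in 7 of 8 genes. The cochaperone gene bag4 read 3324 and 2957 at 16 cells and 118.7, 86.7 and 118.7 at 9 hours (4.68 ± 0.13). The small heat shock protein gene hspb1 read 102.6 and 115.8 at 16 cells against 10389, 11309 and 11012 (-6.45 ± 0.052, adjusted p = 6.21e-21). The collagen chaperone gene serpinh1b read 8.59 and 12.6 against 1636, 1635 and 1570 (-5.94 ± 0.071).

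**Figure D2:**
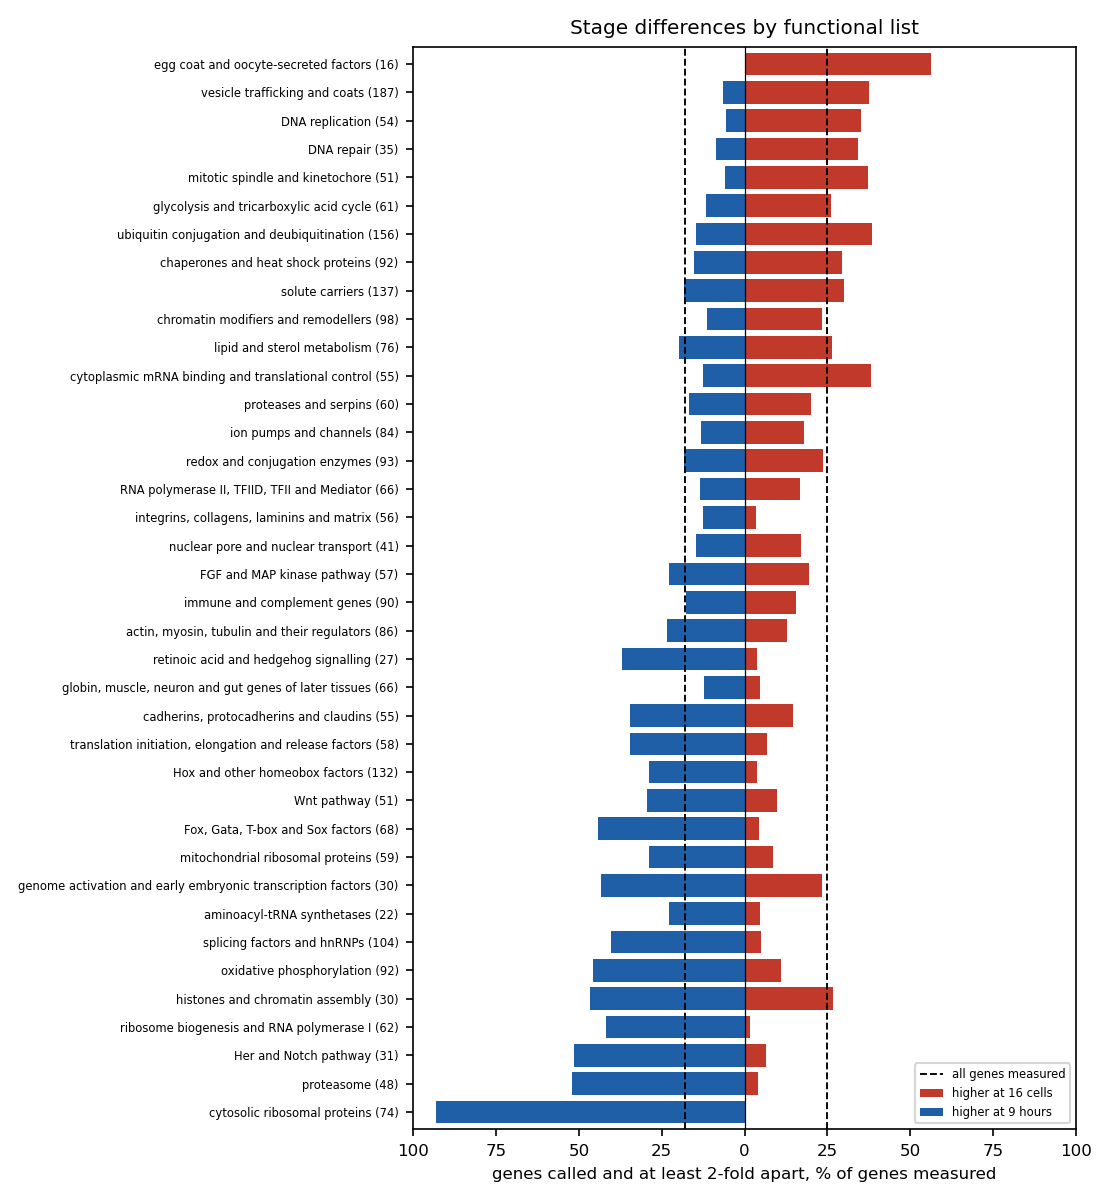
Share of the measured genes of each of 38 functional lists that were called and at least 2-fold higher at 16 cells (red bars, to the right) or at 9 hours (blue bars, to the left), with the number of genes measured in brackets. Dashed lines mark the shares over all 8793 genes, 25.0% and 17.9%. Cytosolic ribosomal proteins reach 93.2% on the 9-hour side, and the egg coat list reaches 56.2% on the 16-cell side.

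Genes of central carbon metabolism were called in both directions. Of 61 genes of glycolysis and the tricarboxylic acid cycle, 31 were higher at 16 cells and 20 at 9 hours, with 16 (26.2%) and 7 (11.5%) at least 2-fold apart, the former near the background share. The median of 0.46 was positive under all 4 scalings and was -0.12 once the dimmest 40% of probe sets had been dropped. The pyruvate kinase gene pkma read 4679 and 4873 at 16 cells and 69.0, 57.6 and 60.1 at 9 hours (5.94 ± 0.20, adjusted p = 2.10e-13). The triose phosphate isomerase gene tpi1a read 1403 and 1606 against 38.8, 27.6 and 29.1 (4.99 ± 0.13). In the other direction pck2, for the mitochondrial enzyme that makes phosphoenolpyruvate, read 36.1 and 40.8 at 16 cells against 3582, 3922 and 4048 (-6.15 ± 0.074).

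Genes of oxidative phosphorylation were mostly higher at 9 hours. Of 92 measured, 58 were higher at 9 hours and 21 at 16 cells, with 42 (45.7%) and 10 (10.9%) at least 2-fold apart. The median was -0.58 and was negative under all 4 scalings, though only -0.06 when scaled to the hybridisation controls. Structural subunits of complex I were higher at 9 hours in 23 of 31 genes, of complex IV in 9 of 13 and of the ATP synthase in 12 of 16. Not every group had this direction. Of 7 complex II genes, assembly factors included, 4 were higher at 16 cells and 2 at 9 hours. Complex I assembly genes gave 3 calls at 16 cells and 2 at 9 hours of 6. Of 5 complex IV assembly genes, 3 were higher at 16 cells and 0 at 9 hours. The copper chaperone gene cox17, which supplies complex IV, read 3277 and 3557 at 16 cells and 284.9, 237.2 and 257.5 at 9 hours (3.64 ± 0.11, adjusted p = 5.54e-14). The subunit gene cox8a read 241.2 and 289.9 against 3417, 3459 and 3501 (-3.63 ± 0.065). For ndufa2 the 16-cell arrays differed from each other, at 103.6 and 0, against 734.7, 673.3 and 729.3 at 9 hours.

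Lipid genes lay near the background shares, 20 of 76 (26.3%) at least 2-fold higher at 16 cells and 15 (19.7%) at 9 hours. Calls were 36 higher at 16 cells and 25 at 9 hours. The list median of 0.26 was -0.43 once the dimmest 40% of probe sets had been dropped. Families drawn from the list differed in direction. Acyl-CoA dehydrogenases, which begin fatty acid oxidation, were higher at 16 cells in 6 of 7 genes, and in 2 of 3 without the dimmest 40%. The gene acadl read 1103 and 1138 at 16 cells and 12.5, 12.5 and 13.1 at 9 hours (5.31 ± 0.10, adjusted p = 1.14e-16). The thiolase gene acat1 read 1453 and 1424 against 54.2, 39.0 and 35.4 (4.64 ± 0.17). Apolipoprotein genes were higher at 9 hours in 11 of 15 cases. The gene apoeb read 31.8 and 39.1 at 16 cells against 8562, 8216 and 8720 (-7.37 ± 0.052). Redox enzymes also lay near the background, at 22 of 93 (23.7%) and 17 (18.3%). The catalase gene cat read 2218 and 2338 at 16 cells and 97.1, 88.2 and 70.5 at 9 hours (4.51 ± 0.12), while the sulfotransferase gene sult6b1 read 22.4 and 27.7 against 2748, 2730 and 2683 (-6.06 ± 0.067). The thioredoxin gene txnb was listed at 0 on both 16-cell arrays and read 612.7, 655.8 and 674.4 at 9 hours.

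Transporters as a whole lay near the background. Among 137 solute carriers, 41 (29.9%) were at least 2-fold higher at 16 cells and 25 (18.2%) at 9 hours. The mitochondrial carriers of the slc25 family were higher at 16 cells in 17 of 24 genes and at 9 hours in 6. The gene slc25a25a, for a calcium-regulated ATP carrier, read 7761 and 7576 at 16 cells and 258.5, 233.5 and 232.5 at 9 hours (4.90 ± 0.078, adjusted p = 1.59e-17). The monocarboxylate transporter gene slc16a3b read 6517 and 6447 against 255.6, 182.9 and 263.0 (4.72 ± 0.17). The amino acid exchanger gene slc7a8a was listed at 0 on both 16-cell arrays and read 5014, 4820 and 4873 at 9 hours. The heavy chain that carries such exchangers to the membrane, slc3a2b, read 29.9 and 23.3 at 16 cells against 4146, 4383 and 4227 (-6.65 ± 0.16). For both transporter genes the stages were far apart on every array. Among pumps and channels, 15 of 84 (17.9%) and 11 (13.1%) were at least 2-fold apart, below the background, and 30 were dim at both stages. The connexin gene gjc4a.1 read 1560 and 1493 at 16 cells and 21.9, 22.8 and 22.9 at 9 hours (5.32 ± 0.13).

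Proteases and serpins were near or below the background shares, 12 of 60 (20.0%) at 16 cells and 10 (16.7%) at 9 hours. Individual genes were far apart. The membrane protease gene tmprss4b read 1857 and 1777 at 16 cells and 39.3, 41.0 and 25.7 at 9 hours (5.17 ± 0.18). The lysosomal cathepsin gene ctsz read 1392 and 1447 against 38.2, 25.4 and 24.8 (4.99 ± 0.14). The cathepsin gene ctsll read 26.1 and 22.6 at 16 cells against 4850, 4568 and 4857 (-6.89 ± 0.049, adjusted p = 1.75e-21), and the calpain gene capn9 read 13.7 and 21.1 against 2453, 2568 and 2465 (-6.24 ± 0.074).

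Nuclear factors supplied by the mother included several oocyte forms. The general transcription list was balanced under quantile normalisation, with 29 of 66 genes higher at 16 cells and 24 at 9 hours. At least 2-fold apart were 11 (16.7%) and 9 (13.6%). Under the other scalings it leaned to 16 cells. Calls at 16 cells and at 9 hours were 35 and 20 as deposited, and 43 and 18 under median centring. Scaled to the hybridisation controls they were 44 and 5. The oocyte gene tbpl2, for a relative of the TATA-binding protein, read 642.5 and 576.7 at 16 cells and was listed at 0 on every 9-hour array and on the 50% epiboly array. The gene for the TATA-binding protein itself, tbp, was also higher at 16 cells, at 4594 and 4361 against 438.6, 449.5 and 448.1 (3.28 ± 0.081, adjusted p = 2.93e-15). RNA polymerase II subunits lay on the other side, 6 of 8 higher at 9 hours, with polr2f at 379.7 and 374.9 against 1876, 2005 and 1908 (-2.31 ± 0.066). Scaled to the hybridisation controls, 3 of the 8 were higher at 9 hours and 2 at 16 cells. Nuclear transport was balanced, 19 genes each way of 41, and its median of -0.03 turned positive under each of the other 3 scalings. The oocyte importin gene kpna7 read 4560 and 4668 at 16 cells and 67.7, 32.8 and 37.5 at 9 hours (6.26 ± 0.19, adjusted p = 5.42e-14). A relative, kpna3, read 151.0 and 158.7 against 952.0, 1037 and 1027 (-2.58 ± 0.067).

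Histone and chromatin genes were called in both directions. Of 30 genes for histones and chromatin assembly, 10 were higher at 16 cells, 20 at 9 hours and 0 went uncalled, and 8 (26.7%) and 14 (46.7%) were at least 2-fold apart. The gene slbp2, for an oocyte protein that binds histone mRNA, read 6659 and 6235 at 16 cells and 30.4, 30.2 and 24.7 at 9 hours (7.19 ± 0.13, adjusted p = 9.19e-17). The linker histone gene histh1l1 read 94.5 and 84.1 at 16 cells against 2461, 2680 and 2780 (-4.66 ± 0.14). The nucleosome-binding gene hmgn6 read 23.4 and 5.30 against 4834, 4857 and 4719 (-7.38 ± 0.15), and 12 of 13 genes of the HMGA, HMGB and HMGN families were higher at 9 hours. Among 98 chromatin modifiers, 23 (23.5%) were at least 2-fold higher at 16 cells, close to the background, and 11 (11.2%) at 9 hours. The Polycomb gene bmi1b read 2220 and 2210 at 16 cells and 151.6, 130.4 and 124.1 at 9 hours (3.89 ± 0.095). The maintenance DNA methyltransferase gene dnmt1 read 9209 on both 16-cell arrays and 724.6, 668.8 and 652.5 at 9 hours (3.73 ± 0.086). The de novo enzyme gene dnmt3ba went the other way, at 405.6 and 407.5 against 2018, 2078 and 2166 (-2.32 ± 0.047), as did mbd3b of the NuRD complex at 285.3 and 282.1 against 2316, 2538 and 2434 (-3.03 ± 0.066).

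The factors of genome activation and early patterning were called in both directions, with more of the large differences at 9 hours. Of 30 such genes, 10 were higher at 16 cells and 15 at 9 hours. At least 2-fold apart were 7 (23.3%, below the 25.0% of all genes) and 13 (43.3%). Bright at 16 cells and dim at 9 hours were 2 of them, and 10 the reverse. The ventral homeobox gene ved read 6.94 and 10.1 at 16 cells and 4000, 3721 and 3359 at 9 hours (-7.24 ± 0.080, adjusted p = 2.15e-19). Nanog, a homeobox activator of the first zygotic genes, read 10690 and 10890 at 16 cells and 351.6, 275.3 and 315.1 at 9 hours (5.04 ± 0.14, adjusted p = 1.76e-14). The T-box gene eomesa, which acts with Nodal signals in endoderm, read 2831 and 3052 against 45.2, 27.1 and 30.2 (5.90 ± 0.17). On the 50% epiboly array nanog stood at 1059 and eomesa at 142.9, both between the stages. The list median of -0.42 turned to 0.10 when arrays were scaled to the hybridisation controls.

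**Figure D3:**
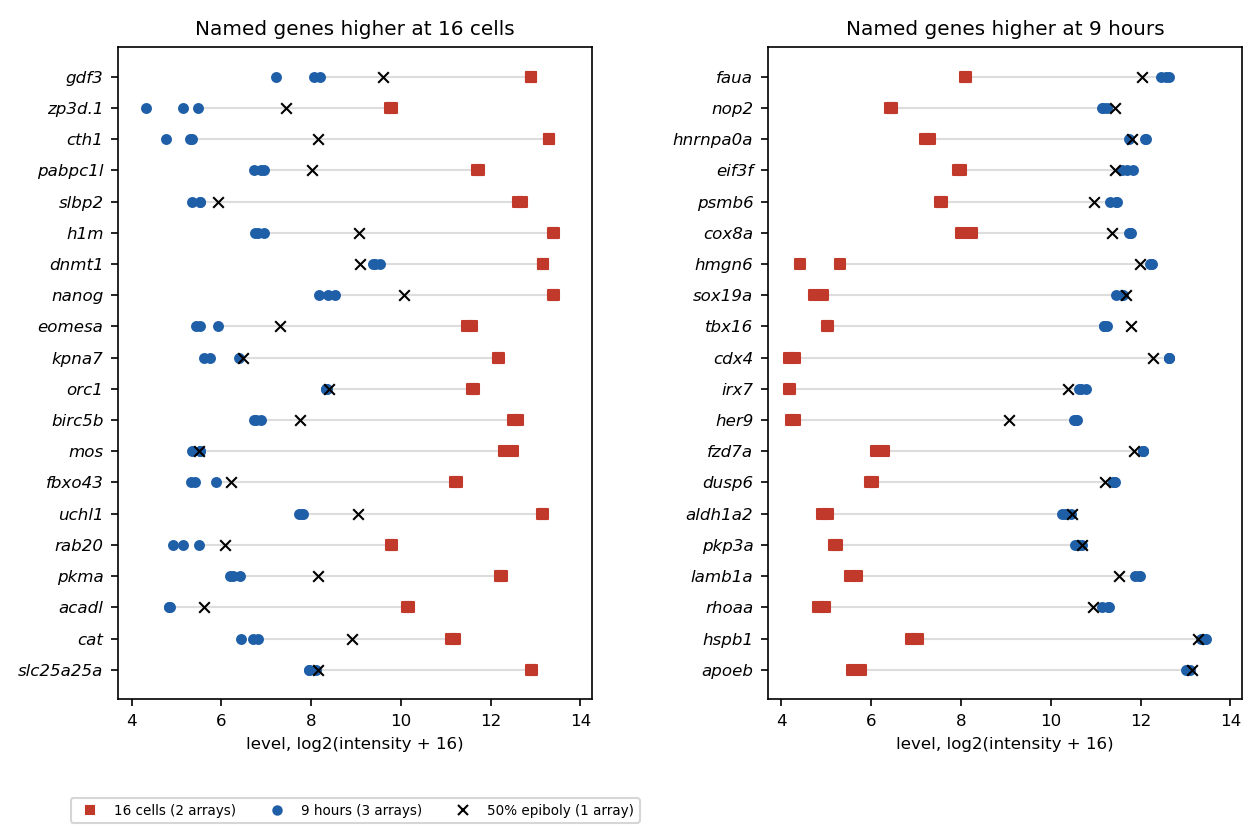
Levels of 20 named genes higher at 16 cells (left) and 20 higher at 9 hours (right), as log2(intensity + 16). Red squares are the 2 arrays at 16 cells, blue circles the 3 arrays at 9 hours and black crosses the 50% epiboly array. Arrays of a stage lie close together against the gap between the stages for each gene shown, and most crosses lie nearer the 9-hour arrays.

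The protein synthesis machinery made up the broadest gain. Of 74 cytosolic ribosomal protein genes, 73 were higher at 9 hours and 0 at 16 cells, and 69 (93.2%, against 17.9% of all genes) were at least 2-fold higher. The median was -2.61 and ranged from -2.61 to -1.91 over the 4 scalings. Both subunits shared it, with medians of -2.61 for 29 genes of the small subunit and -2.62 for 45 of the large. All 74 were bright at both stages. The gene faua, whose product includes a small-subunit protein, read 258.5 and 258.9 at 16 cells and 6334, 6060 and 5584 at 9 hours (-4.45 ± 0.052, adjusted p = 4.35e-19). The gene rps26l read 289.9 and 306.4 against 5955, 5564 and 5378 (-4.17 ± 0.057). An oligo(dT)-primed signal holds tail length and amount together, and for these mRNAs they cannot be told apart here.

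Ribosome assembly followed in the same direction and less far. Of 62 ribosome biogenesis genes, 47 were higher at 9 hours and 5 at 16 cells, with 26 (41.9%) and 1 (1.61%) at least 2-fold apart and a median of -0.78. The median was -0.12 when scaled to the hybridisation controls. The rRNA methyltransferase gene nop2 read 72.5 and 69.2 at 16 cells and 2256, 2410 and 2269 at 9 hours (-4.74 ± 0.067, adjusted p = 3.59e-18). The nucleolar GTPase gene gnl3 read 115.8 and 114.8 against 2128, 2481 and 2439 (-4.17 ± 0.078). The 1 gene at least 2-fold higher at 16 cells was tsr3, for an enzyme that modifies small-subunit rRNA, at 750.8 and 665.1 against 296.1, 284.0 and 292.2 (1.24 ± 0.10).

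Translation factors were mixed around a late gain. Of 58 genes, 32 were higher at 9 hours and 16 at 16 cells, with 20 (34.5%) and 4 (6.90%) at least 2-fold apart. The median of -0.27 turned to 0.28 when scaled to the hybridisation controls. Subunits of eIF3, the scaffold of the initiation complex, were higher at 9 hours in 10 of 14 genes. The subunit gene eif3f read 228.3 and 241.5 at 16 cells and 3643, 3300 and 3056 at 9 hours (-3.74 ± 0.072, adjusted p = 1.57e-16), while eif3eb read 474.2 and 430.9 against 67.0, 64.5 and 64.9 (2.52 ± 0.12). The helicase gene eif4a2 read 87.0 and 75.8 at 16 cells against 1436, 1465 and 1456 (-3.92 ± 0.074). Of 22 tRNA synthetase genes, 5 (22.7%) were at least 2-fold higher at 9 hours and 1 (4.55%) at 16 cells, and the median of -0.44 turned to 0.16 with the same controls. Lysyl-tRNA synthetase, kars1, read 818.8 and 916.8 at 16 cells against 3191, 3001 and 2964 (-1.80 ± 0.052). The mitochondrial enzyme gene cars2 read 331.3 and 315.5 against 61.2, 42.5 and 46.6 (2.37 ± 0.14).

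Mitochondrial ribosomal proteins did not share the cytosolic pattern in size. Of 59 genes, 37 were higher at 9 hours and 13 at 16 cells, with 17 (28.8%) and 5 (8.47%) at least 2-fold apart. The median was -0.40, and 0.23 when scaled to the hybridisation controls. The gene mrpl42 read 34.2 and 44.3 at 16 cells and 588.8, 616.3 and 566.5 at 9 hours (-3.46 ± 0.086). In the other direction mrps30 read 1235 and 1356 against 283.1, 253.6 and 257.4 (2.22 ± 0.11).

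Splicing factors were bright at both stages in 94 of 104 cases and were mostly higher at 9 hours. Calls were 66 higher at 9 hours and 24 at 16 cells, with 42 (40.4%) and 5 (4.81%) at least 2-fold apart. The median was -0.55, and -0.04 when scaled to the hybridisation controls, where 37 genes were called each way. SR proteins, which bind exonic enhancers, were higher at 9 hours in 9 of 13 genes, each at least 2-fold. Scaled to the hybridisation controls, 9 were still called higher at 9 hours, 4 of them at least 2-fold. Of 20 hnRNP genes, 13 were higher at 9 hours. The gene hnrnpa0a read 141.7 and 130.9 at 16 cells and 3426, 4373 and 4454 at 9 hours (-4.74 ± 0.11, adjusted p = 1.56e-15), and its other probe sets were called the same way. The abundant hnRNP gene hnrnpc read 6991 and 7246 at 16 cells against 2218, 1992 and 1953 (1.79 ± 0.067). The snRNP gene snrpb2 read 3410 and 3650 against 777.6, 1265 and 1095 (1.77 ± 0.13), and 3195 at 50% epiboly, near the 16-cell level.

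Transcription factors of the body plan were mostly higher at 9 hours. Of 68 Fox, Gata, T-box and Sox genes, 41 were higher at 9 hours and 10 at 16 cells, and 30 (44.1%) and 3 (4.41%) were at least 2-fold apart. Of these genes 23 were dim at 16 cells and bright at 9 hours, and 15 were dim at both. In bulk RNA, expression in fewer cells and less RNA per cell cannot be told apart. The T-box gene tbx16, which drives paraxial mesoderm, read 16.8 and 16.6 at 16 cells and 2422, 2298 and 2300 at 9 hours (-6.17 ± 0.069, adjusted p = 2.59e-19). Of 6 Gata genes, 5 were higher at 9 hours, with a median over the 6 of -5.04. The forkhead gene foxp1a went the other way, at 1050 and 1041 against 407.7, 357.6 and 362.6 (1.44 ± 0.087).

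Among 132 Hox and other homeobox genes, 65 were higher at 9 hours and 19 at 16 cells, with 38 (28.8%) and 5 (3.79%) at least 2-fold apart. Dim at both stages were 48 of the 132, against 1540 of all 8793 genes. The matrix list, at 31 of 56, held a larger share. The caudal gene cdx4, which regulates Hox genes in the tail, read 2.06 and 3.69 at 16 cells and 6311, 6334 and 6334 at 9 hours (-8.39 ± 0.050, adjusted p = 2.70e-22). The Iroquois gene irx7 read 2.42 and 1.94 against 1754, 1571 and 1619 (-6.51 ± 0.069). Of 42 genes of the Hox clusters themselves, 18 were higher at 9 hours, 9 of them at least 2-fold, and 5 were higher at 16 cells. Calls at 9 hours and at 16 cells were 31 and 1 as deposited, and 12 and 4 when scaled to the hybridisation controls. Within this list, which does not hold nanog, the genes with the largest excess at 16 cells were dim ones, six6b at 97.0 and 88.3 against 6.99, 4.65 and 7.79, and irx4b at 119.4 and 108.5 against 18.9, 18.6 and 13.9.

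Signalling genes differed by pathway and by role. In the Her and Notch list, 19 of 31 genes were higher at 9 hours and 3 at 16 cells, with 16 (51.6%) and 2 (6.45%) at least 2-fold apart. Her, Hes and Hey repressors accounted for 12 of the 19. The repressor gene her9 read 3.86 and 2.48 at 16 cells and 1486, 1511 and 1459 at 9 hours (-6.29 ± 0.069, adjusted p = 2.05e-19), and 523.9 at 50% epiboly, lower than on any 9-hour array. The related gene hes6 read 62.1 and 36.9 against 3282, 3835 and 3541 (-5.79 ± 0.12). The Deltex gene dtx3, for a ring finger protein, was higher at 16 cells at 381.7 and 377.8 against 28.3, 41.8 and 43.0 (2.89 ± 0.18).

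For Wnt signalling, 26 of 51 genes were higher at 9 hours and 17 at 16 cells, with 15 (29.4%) and 5 (9.80%) at least 2-fold apart. The median of -0.38 turned to 0.20 when scaled to the hybridisation controls. Frizzled receptors were higher at 9 hours in 7 of 8 genes, and fzd7a read 62.2 and 53.5 at 16 cells and 4264, 4248 and 4243 at 9 hours (-5.86 ± 0.053, adjusted p = 2.28e-20). Of 10 Wnt ligand genes, 2 were higher at 9 hours and 3 at 16 cells, and with intensities as deposited 2 and 0. The secreted antagonist gene frzb read 38.8 and 25.6 against 964.3, 1042 and 1215 (-4.51 ± 0.11). Casein kinases, which phosphorylate pathway components, were higher at 16 cells in 4 of 6 genes, and csnk1db read 4728 and 4274 at 16 cells against 1736, 1592 and 1697 (1.42 ± 0.064).

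The FGF and MAP kinase list was balanced, 22 of 57 higher at 16 cells and 23 at 9 hours, near the background at 11 (19.3%) and 13 (22.8%) at least 2-fold apart. The receptor gene fgfr4 read 98.0 and 96.8 at 16 cells and 3403, 3067 and 3226 at 9 hours (-4.84 ± 0.064). The phosphatase gene dusp6, a feedback inhibitor of ERK, read 47.0 and 49.6 against 2760, 2674 and 2707 (-5.41 ± 0.048, adjusted p = 1.93e-20). The 3 measured Spry and Spred genes, inhibitors of the same pathway, were all at least 2-fold higher at 9 hours. The phosphatase genes dusp22a, at 325.5 and 356.8 against 22.5, 27.7 and 19.0 (3.20 ± 0.13), and dusp1, at 5483 and 4834 against 1309, 1096 and 1089 (2.13 ± 0.10), were higher at 16 cells. For retinoic acid and hedgehog signalling, 12 of 27 genes were higher at 9 hours and 7 at 16 cells, with 10 (37.0%) and 1 (3.70%) at least 2-fold apart. The retinoic acid synthesis gene aldh1a2 read 14.0 and 17.0 at 16 cells and 1388, 1264 and 1199 at 9 hours (-5.37 ± 0.073). The binding protein gene crabp2b read 73.7 and 64.2 against 3315, 3688 and 3846 (-5.42 ± 0.11). The 1 gene at least 2-fold higher at 16 cells was sufu, an inhibitor of hedgehog signalling, at 2536 and 2634 against 707.3, 670.2 and 680.8 (1.89 ± 0.059).

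Adhesion and cytoskeletal lists held more genes at least 2-fold higher at 9 hours than at 16 cells, and the matrix list stood below the background in both directions. The list of cadherins, protocadherins and claudins held 55 genes, some of them from other families. Of the 55, 19 (34.5%) were at least 2-fold higher at 9 hours and 8 (14.5%) at 16 cells. Among 24 claudins these counts were 9 and 2, among 8 cadherins 1 and 0, and among 7 protocadherins 3 and 0. The list median of -0.23 was 0.06 when scaled to the hybridisation controls. The desmosomal gene pkp3a read 20.2 and 22.0 at 16 cells and 1463, 1574 and 1653 at 9 hours (-5.41 ± 0.074, adjusted p = 2.44e-18). The matrix list was mostly dim, 31 of 56 genes at both stages, and 7 (12.5%, against 17.9% of all genes) were at least 2-fold higher at 9 hours and 2 (3.57%) at 16 cells. The laminin gene lamb1a, for a basement membrane chain, read 30.2 and 35.2 at 16 cells against 4005, 4056 and 3741 (-6.34 ± 0.058). The hyaluronan synthase gene has2 read 61.2 and 43.4 against 386.5, 402.5 and 464.5 (-2.68 ± 0.23), and 973.6 at 50% epiboly, above every 9-hour array. Of 86 cytoskeletal genes, 20 (23.3%) and 11 (12.8%) were at least 2-fold higher at 9 hours and at 16 cells, with a median of -0.10. Scaled to the hybridisation controls, these counts reversed to 16 at 9 hours and 21 at 16 cells, and the median was 0.19. The GTPase gene rhoaa read 15.3 and 12.0 at 16 cells against 2253, 2513 and 2456 (-6.35 ± 0.074). The actin-binding gene tagln2 read 30.9 and 22.4 against 2661, 2595 and 2582 (-5.95 ± 0.11). The microtubule-binding gene map7b went the other way, at 583.1 and 548.7 against 24.9, 26.4 and 25.9 (3.80 ± 0.14).

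Some keratin genes, which encode intermediate filaments of epithelia, met the rule for naming outside the lists. Of all 15 keratin genes measured, a group counted after values were seen, 10 were higher at 9 hours, 9 of them at least 2-fold, and 0 were higher at 16 cells. The gene krt17 read 1.94 and 0.706 at 16 cells and 3878, 3570 and 3266 at 9 hours (-7.69 ± 0.066, adjusted p = 1.50e-20). The gene krt18a.1 read 21.6 and 20.3 against 9608, 10543 and 10745 (-8.12 ± 0.060). The Sp family transcription factor gene sp5l, a Wnt target, read 5.54 and 6.89 at 16 cells against 3859, 4188 and 4129 (-7.52 ± 0.063). The gene afp4, named as an antifreeze protein gene, read 40.7 and 28.4 against 8361, 8036 and 8516 (-7.37 ± 0.074).

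Some related genes took opposite sides. The pairs counted here were chosen with earlier results of these data known, so the counts do not show how common this is among related genes. Of 29 listed pairs of related genes, 22 had both members measured. The order within a pair was set in the list, and not every pair holds an oocyte form and an embryonic form. In 9 of the 22 the first-listed member was higher at 16 cells and the other at 9 hours. In 8 both were higher at 16 cells, in 1 both at 9 hours, and in 4 a member was not called. Among all genes, 44.7% were called higher at 16 cells and 34.0% at 9 hours. The members of a pair are set side by side only in direction.

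Clear exchanges were seen in several families. Of the SoxB1 genes, sox19b read 1549 and 2052 at 16 cells and 620.9, 392.5 and 616.5 at 9 hours (1.72 ± 0.16, adjusted p = 4.58e-08). Its paralog sox19a read 10.3 and 14.3 at 16 cells against 2770, 3063 and 3097 (-6.73 ± 0.071). The claudin gene cldnd read 13102 and 13299 at 16 cells and was listed at 0 on the 9-hour arrays, while cldne read 12.5 and 12.1 against 1047, 1312 and 1192 (-5.40 ± 0.11). Beside the listed pairs, 2 more sets of paralogs met the rule for naming, which takes large differences. Of the sodium pump subunits, atp1b3b read 3168 on both 16-cell arrays and 200.2, 128.7 and 153.1 at 9 hours (4.19 ± 0.15). Its paralog atp1b3a was listed at 0 on both 16-cell arrays and read 1503, 1624 and 1483 at 9 hours, and a further probe set was called the same way. The trafficking paralogs arl6ip5b and arl6ip5a also took opposite sides. The former read 747.7 and 733.6 at 16 cells against 19.7, 10.8 and 12.5 (4.65 ± 0.15), and the latter 47.5 and 47.2 against 1366, 1519 and 1445 (-4.52 ± 0.086). Among the listed pairs, the antiproliferative genes btg4 (4.46 ± 0.16) and btg1 (-2.02 ± 0.085) and the cyclin genes ccnb1 (2.02 ± 0.047) and ccnb3 (-2.77 ± 0.074) divided in the same way.

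In other families both members were maternal in excess, by unequal amounts. The cyclin gene ccna1 read 10294 and 10231 at 16 cells and 116.1, 98.1 and 119.4 at 9 hours (6.34 ± 0.27), and ccna2 8860 and 8753 against 2573, 2478 and 2579 (1.79 ± 0.059). The stem-loop binding genes slbp2 (7.19) and slbp (0.37 ± 0.087), the survivin genes birc5b (5.78) and birc5a (0.42 ± 0.075) and the anaphase-promoting complex inhibitors fbxo43 (5.69) and fbxo5 (2.67 ± 0.064) had the same form. In each of these pairs the second-listed member differed less than the first. The smallest difference was that of slbp, at 4264 and 3992 against 2713, 3473 and 3410, followed by birc5a, at 1531 and 1763 against 1150, 1310 and 1209. The stages did not overlap on any array in either gene. The superoxide dismutases sod1 (3.43 ± 0.078) and sod2 (1.87 ± 0.096) were both higher at 16 cells, and sod2 at 50% epiboly, at 712.0, was nearer to its 16-cell levels of 875.2 and 941.0 than to its 9-hour levels of 226.3 to 251.4.

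Several pairs changed little or depended on scaling. The poly(A)-binding gene pabpc1l read 3417 and 3315 at 16 cells and 107.9, 101.4 and 90.2 at 9 hours (4.87 ± 0.099, adjusted p = 2.98e-16). Its relative pabpc1a read 8538 and 8589 against 8036, 7820 and 7761 (0.12 ± 0.036), a difference of the opposite sign as deposited (-0.22) and under median centring (-0.09), with another of its probe sets called higher at 9 hours. The cap-binding gene eif4e1b read 455.4 and 486.6 against 342.7, 358.2 and 382.3 (0.37 ± 0.14, adjusted p = 0.0225), a call lost without either 16-cell array or without 9-hour replicate 1. Its relative eif4ea read 186.3 and 196.7 against 1687, 1693 and 1719 (-3.05 ± 0.058). The actin gene actb1 was higher at 9 hours (-0.71 ± 0.033), and actb2 was not called, at 8990 and 8720 against 7497, 9047 and 8790 (0.07 ± 0.074, adjusted p = 0.380). The beta-catenin genes ctnnb2 (0.73 ± 0.043) and ctnnb1 (-0.58 ± 0.052) differed in sign, and the call of ctnnb1 was lost when scaled to the hybridisation controls. For the elongation factor gene eef1a1l1 the normalised level was the top value of the array, 14657, on every 9-hour array, so its difference of -0.31 was set by rank, and it was 0.23 when scaled to those controls. Probe sets of near-identical paralogs such as the actins may share signal, and where their probes lie was not used here.

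**Figure D4:**
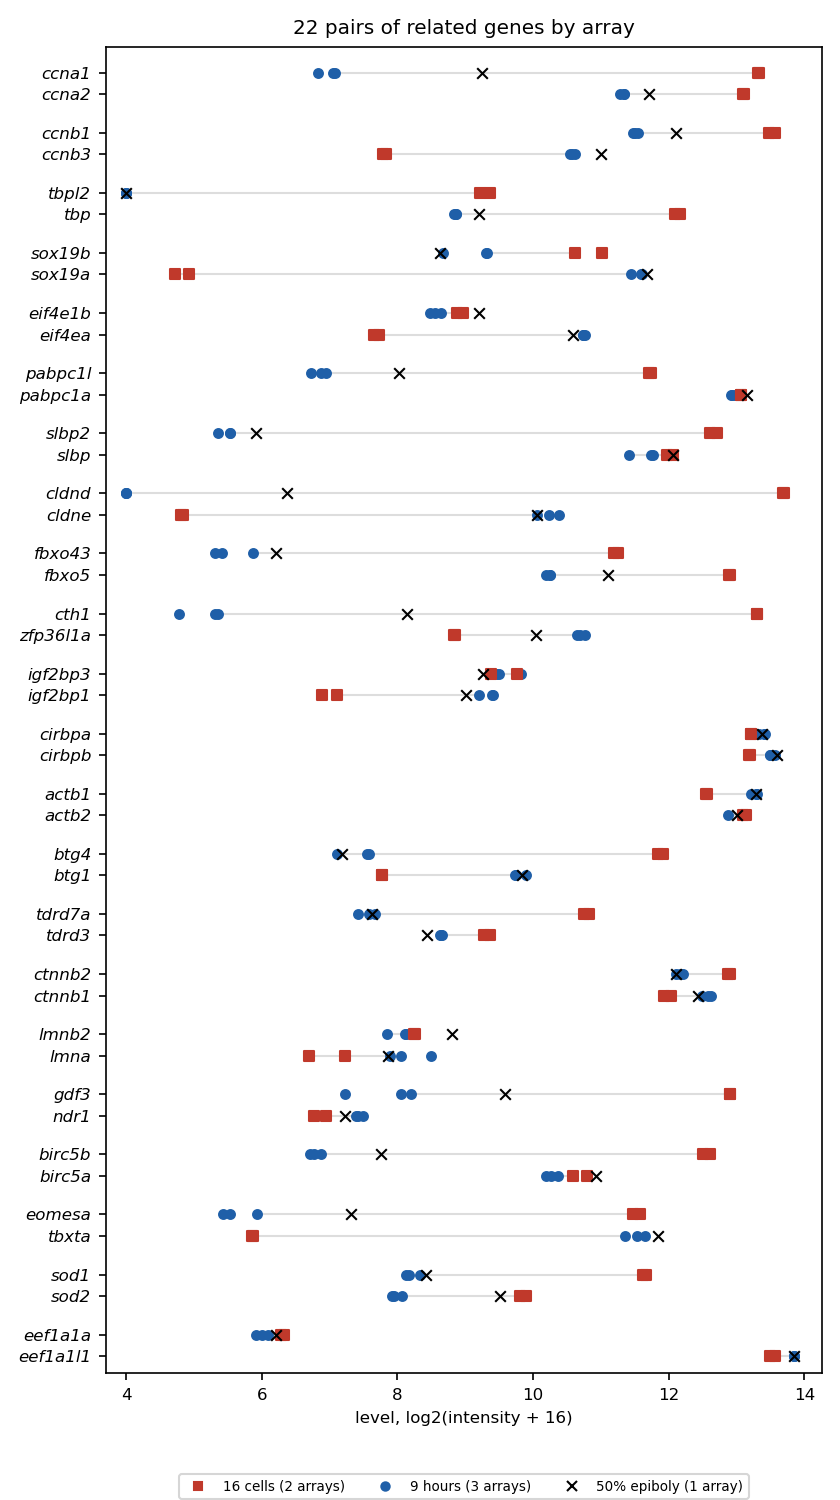
Levels, as log2(intensity + 16), of both members of 22 pairs of related genes, the first-listed member above the other. Red squares are the 2 arrays at 16 cells, blue circles the 3 arrays at 9 hours and black crosses the 50% epiboly array. For pairs such as sox19b and sox19a or eomesa and tbxta the colours change sides between the members, and for ccna1 and ccna2 the red squares are higher in both.

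Genes of later tissues were dim at both stages in 28 of 66 cases, a list of globin, muscle, neuron and gut genes. Of the 66, 8 (12.1%) and 3 (4.55%) were at least 2-fold higher at 9 hours and at 16 cells, below the background. The creatine kinase gene ckmt1 read 23.6 and 28.3 at 16 cells and 549.4, 535.5 and 540.1 at 9 hours (-3.73 ± 0.10). The globin gene hbba2 read 276.3 and 360.0 against 88.1, 105.3 and 91.5 (1.58 ± 0.47, adjusted p = 0.00677), a call that was lost without the second 16-cell array. Immune genes also lay near or below the background, at 14 of 90 (15.6%) at 16 cells and 16 (17.8%) at 9 hours, with 37 dim at both. The chemokine receptor gene cxcr4a, which is used in gastrulation movements, read 53.4 and 48.8 at 16 cells and 1554, 1551 and 1617 at 9 hours (-4.57 ± 0.058). The ligand gene cxcl12b read 0.465 and 0 against 1117, 1248 and 1257. The tetraspanin gene cd82b (5.16 ± 0.20) and the decoy receptor gene il13ra2 (4.79 ± 0.19) were higher at 16 cells.

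On the 50% epiboly array most of the change was already present. Among 3257 probe sets with an excess of 2-fold or more at 16 cells, 2953 (90.7%) were past the midpoint of their log2 change on the 50% epiboly array, and the median share of the change done was 0.91. Of the 3004 at least 2-fold higher at 9 hours, 2781 (92.6%) were past the midpoint, with a median share of 0.92. This array has no replicate. It shared the 16-cell scan day and the hybridisation date and time.

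**Figure D5:**
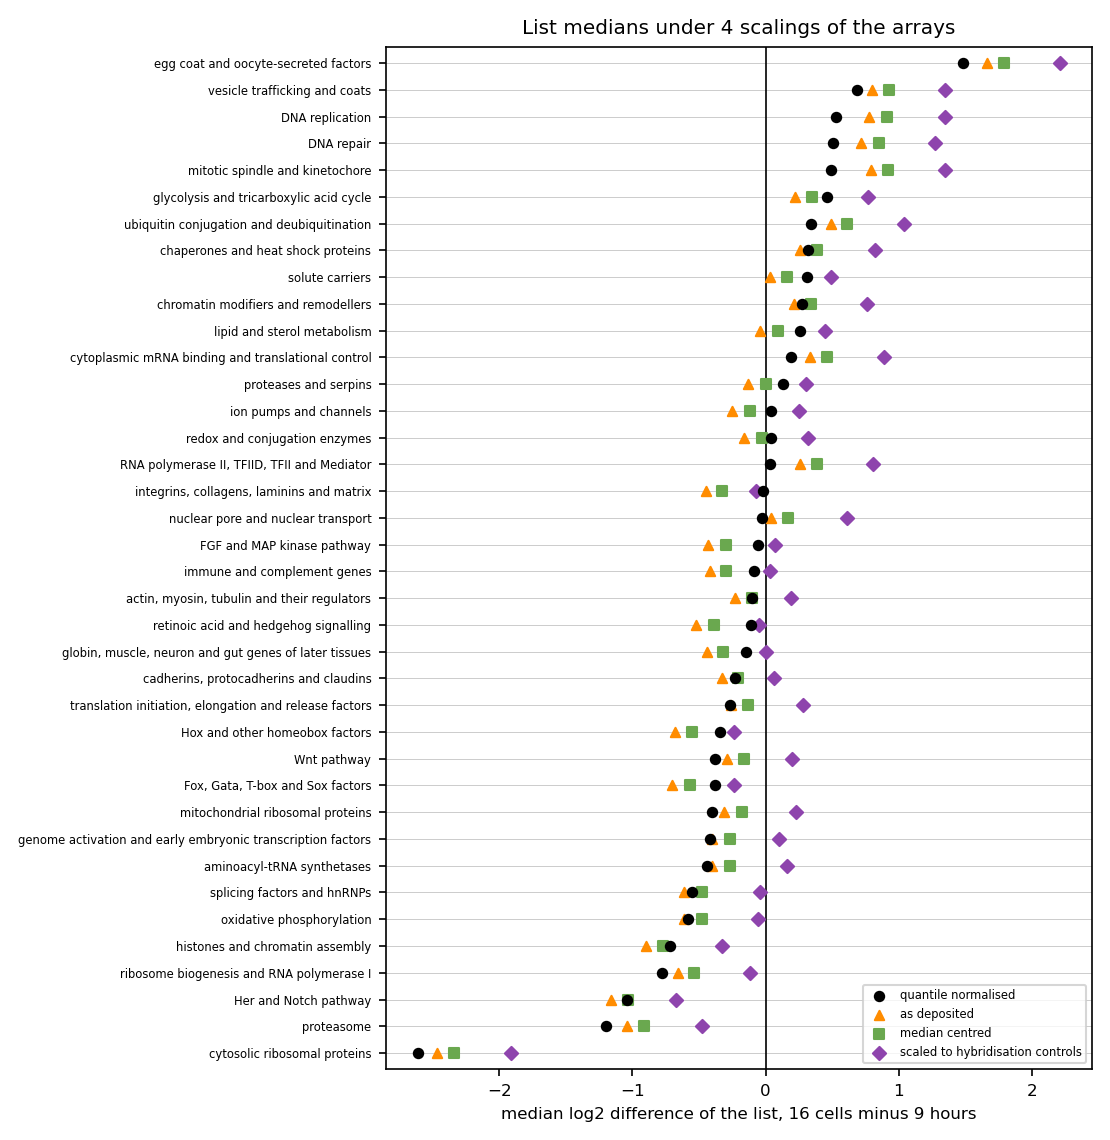
Median log2 difference, 16 cells minus 9 hours, of each functional list under 4 scalings of the arrays. Lists at the top and bottom keep their side of 0 under each scaling. Scaling to the hybridisation controls (purple diamonds) moves most medians to the right, and lists with medians near 0 change sign.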

How the data were processed

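The deposited table holds 1 linear intensity per probe set and array, made by the authors. Probe summary, background correction and scaling are not given in the sources used here. The labels' protocols give 20 embryos per array. Intensities of all 15 arrays were quantile normalised. Negative results were then replaced by 0, and log2(intensity + 16) was fitted in 6 groups with limma 3.58.1 (R 4.3.3, mean-variance trend, 9 residual degrees of freedom). Of 15617 probe sets, 115 controls were left out. Of the 15502 tested, 10795 had 1 symbol in the platform annotation, 135 several and 4572 none, and 10711 matched the RefSeq gene table of GRCz12tu. Of 1539 genes with several probe sets, 179 had calls in both directions and 20 at 2-fold or more.

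The members, the 38 lists (2643 genes, by symbol), the 29 pairs and the naming rule were chosen with earlier results of these data known. After a first run, 64 symbols were left out of lists by function, and subfamilies were set by symbol after values were seen. Named were pair members, up to 2 genes per list and direction with the largest called, non-overlapping differences of at least 2-fold, up to 10 per direction outside the lists, and markers. Clone-type names were not used. Simulated data over 15502 probe sets for this comparison gave back 41 of 67 probe sets changed 1.5-fold, 62 of 67 at 2-fold and 65 of 66 at 4-fold, with 6 false calls. The simulation drew independent noise and raised 200 probe sets at 16 cells, with no normalisation step and no array or scan-day effect. In the data 75.6% of probe sets were called, in both directions, so these rates need not carry over. The number of arrays limits the precision. Scan days came from the headers of the array information files, and hybridisation runs from the hybridisation date and time in the same headers. Deviations of same-numbered arrays from their group means correlated at -0.00412 and -0.000615, so numbers were not treated as pairs. Alternatives were other scalings, pseudocounts of 1 and 64, the dimmest 40% left out, no trend, only the 5 arrays, blocks, other class limits and each array left out.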

Additional observations from a re-analysis of the deposited data

How the results depend on the processing

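Results were recomputed under the alternatives named above. With arrays scaled to the hybridisation controls, 3595 probe sets were called higher at 9 hours. Once the dimmest 40% of probe sets had been dropped, 3397 were called higher at 16 cells and 1830 of them by at least 2-fold. With bright set above the 60th and dim below the 30th percentile, 609 probe sets were bright at 16 cells and dim at 9 hours and 742 the reverse. Every other total of calls and classes over all probe sets stayed within 1.5 times its value. Counts within some lists moved further. Scaled to the hybridisation controls, ribosome biogenesis genes had 22 calls at 9 hours and 18 at 16 cells. Mitochondrial ribosomal proteins then had 19 and 27. Without each array in turn, calls were 5595 to 6068 higher at 16 cells and 5055 to 5532 higher at 9 hours. Leaving out a 16-cell array leaves 1 in that group, which is then assumed to vary like the other groups. With the replicate number as a block 6115 and 5445 were called. With scan day as a random block 5916 and 5281 were called, and with the hybridisation run 6043 and 5366. Neither the scan day nor the hybridisation run of the 16-cell arrays held a 9-hour array, so these random blocks cannot separate stage from either. Same-numbered arrays did not deviate together, so the replicate block result has no pairing behind it. Scaled to the hybridisation controls, list medians changed sign for translation factors (0.28), tRNA synthetases (0.16), mitochondrial ribosomal proteins (0.23), nuclear transport (0.61), genome activation factors (0.10), Wnt (0.20), FGF (0.07), cadherins and claudins (0.06), cytoskeleton (0.19) and immune genes (0.03). As deposited they changed sign for nuclear transport (0.04), lipid (-0.04), redox (-0.16), pumps and channels (-0.25) and proteases (-0.13), and under median centring for nuclear transport (0.17), redox (-0.03) and pumps (-0.12). Without the dimmest 40% they changed sign for RNA polymerase II and Mediator (-0.04), ubiquitin (-0.01), glycolysis (-0.12), lipid (-0.43), redox (-0.18), solute carriers (-0.21), pumps (-0.39) and proteases (-0.15). Leaving out single arrays gave -0.06 to 0.01 for nuclear transport, -0.07 to 0.03 for the matrix list and -0.03 to 0.04 for pumps. Averaging probe sets gave 0.12 for nuclear transport, and using every probe set gave -0.06 for pumps. Single genes that changed sign as deposited included pabpc1a (-0.22), actb2 (-0.23) and lyz (-0.01). Under median centring they included pabpc1a (-0.09) and igf2bp3 (0.46). With the controls they included igf2bp3 (0.89), cirbpa (0.16) and eef1a1l1 (0.23). Keeping the symbols left out by function, an alternative chosen after seeing the data, changed the sign of no list median. The cause of these changes was not tested. Depth does not apply to arrays, and the 2 arrays of the 16-cell stage limit the precision.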

Other observations

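Some named genes stood outside both stages at 50% epiboly, an unreplicated array, and were picked here after their values were seen. The cyclin gene ccnd1 read 155.9 and 103.4 at 16 cells, 6919 at 50% epiboly and 4636, 4475 and 4537 at 9 hours. The endoderm gene sox32, for a Sox factor needed to make endoderm, read 1811 at 50% epiboly against 1109, 1029 and 1176 at 9 hours. The F-box gene fbxo44.9 read 7383 at 50% epiboly, 0 and 4.95 at 16 cells, and 2588, 2860 and 3029 at 9 hours. The lamin gene lmnb2 read 431.5 at 50% epiboly, above both the 16-cell values of 290.6 and 286.4 and the 9-hour values of 214.2, 262.6 and 260.0.

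Probe sets of a gene did not always give the same answer. For lmna, which encodes a nuclear lamin, the probe set used was higher at 9 hours (log2 difference -1.18) and another was higher at 16 cells (0.47). For the muscle gene tnni2a.4 the probe set used was higher at 9 hours (-2.75) and the other was not called (0.28, limma adjusted p = 0.330).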
